A study of Homo sapiens with 6 samples.

Results

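The unfolded protein response and the folding machinery of the endoplasmic reticulum (ER) were followed through 36 genes, chosen by name: 10 chaperones and co-chaperones, 2 lectin chaperones, 5 enzymes of disulfide formation, 9 genes of ER-associated degradation, the 3 stress sensors with the transcription factor XBP1, and 6 genes of the translocon. The raw counts list 58174 human gene identifiers and the normalized values deposited by the authors cover 23026 genes, and 35 of the 36 genes are among the latter, DERL3 being the exception. T98G, an established human glioblastoma line, was infected either with a lentivirus expressing a control short hairpin RNA (shControl) or with one expressing a hairpin against the kinase DYRK1A (shDYRK1A), selected with puromycin, left to recover without it and sequenced as 3 libraries per group, named 1A, 1B and 1C in each; library values are given below in that order. The same number of T98G cells per condition had been mixed with Drosophila Kc167 cells in a fixed amount, and the fly reads set the scale of the normalized counts. The labels do not say whether libraries of a group came from separate cultures; the methods state for the study's experiments in general that they were repeated independently, without naming these libraries, so p-values measure only the spread between these libraries, which may be technical.

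The libraries held 33708297 to 42154438 human counts. The library shDYRK1A 1B had the fewest, the largest share of unmapped reads (15.6%, against 8.44 to 11.9% in the other 5), and stood apart from its replicates, with a chi-square per gene of 16.1 and 19.9 against 1A and 1C, where the other pairs within a group had 4.76 to 8.50. DYRK1A itself had 2227, 2234 and 1895 normalized counts in shControl, and 1482, 1056 and 1285 in shDYRK1A. The groups did not overlap, and its log2 fold change (log2FC) was -0.73 ± 0.15 (SE, edgeR's quasi-likelihood test, adjusted p = 5.33e-06), or -0.34 ± 0.06 relative to the other human genes (adjusted p = 0.000591). No second hairpin against DYRK1A is named among these libraries. Effects of the hairpin on other genes thus cannot be told apart from those of losing DYRK1A. Of the glial and glioblastoma markers, VIM, CD44 and EGFR were high (4118 normalized counts or more in each library). S100B was at 0, SOX2 at no more than 1.95 and GFAP at no more than 4.54. OLIG2 (35.4 to 84.0) and NES (42.8 to 96.5) were low. Markers of immune, epithelial, endothelial, neuronal and liver cells (PTPRC, EPCAM, PECAM1, RBFOX3 and ALB) stayed at or below 61.4.

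Proteins that enter the ER are threaded through the translocon, bound by chaperones, given sugars and disulfide bonds, and sent on once folded, whereas those that stay misfolded are pulled back to the cytosol and degraded. When unfolded proteins build up, the sensors IRE1 (gene ERN1), PERK (gene EIF2AK3) and ATF6 start the unfolded protein response: IRE1 splices the XBP1 message, PERK slows translation and favours ATF4, and a released part of ATF6 enters the nucleus. ATF6 and spliced XBP1 raise the chaperones and degradation genes, many of which carry an ER stress response element in the promoter. Gene counts sum all forms of a message, so the splicing of XBP1 cannot be read from them.

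The promoters are shown because such elements are what these genes are known to share. RefSeq promoters (build GRCh38.p14, 250 bases before to 50 after the start site) were matched for 33 of the 36 genes and searched on both strands. The element called ERSE (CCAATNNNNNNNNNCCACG) was present in 7 of the 33 genes (HSPA5, HSP90B1, CRELD2, CALR, CANX, PDIA6 and XBP1) and in 0.0769% of all 35116 promoters (0.0916% of the 27305 genes these belong to). The shorter ERSE-II (ATTGGNCCACG) was present in HYOU1, SDF2L1 and HERPUD1, and in 0.0541% of promoters (0.0696% of genes). The UPR element TGACGTGG was present in HYOU1, DNAJC10 and SSR3, and in 0.729% of promoters (0.927% of genes). The simple CCAAT box (CCAAT), which every ERSE and ERSE-II contains on one strand or the other, was in 28 of the 33 genes and in 34.6% of promoters (39.7% of genes). CTCGCGAG, the core of a palindrome that has been associated with DYRK1A on chromatin, was in 1.02% of promoters (1.23% of genes) and in 0 of the 33. These windows are written on the strand of the gene with the matched letters in capitals, for the genes on which the results below turn:
HSPA5 (ERSE, chr9:125241371-125241429, minus strand, 66 bases before the start site): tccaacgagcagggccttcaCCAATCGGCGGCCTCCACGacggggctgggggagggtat
HSP90B1 (ERSE, chr12:103930196-103930254, plus strand, 194 bases before): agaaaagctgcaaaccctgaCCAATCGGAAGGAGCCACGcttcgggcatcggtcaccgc
HSP90B1 (ERSE on the opposite strand, chr12:103930301-103930359, plus strand, 89 bases before): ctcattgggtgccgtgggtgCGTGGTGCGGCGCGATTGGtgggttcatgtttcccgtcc
XBP1 (ERSE, chr22:28800583-28800641, minus strand, 52 bases before): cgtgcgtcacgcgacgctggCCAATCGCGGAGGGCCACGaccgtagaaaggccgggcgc
CALR (ERSE on the opposite strand, chr19:12938364-12938422, plus strand, 225 bases before): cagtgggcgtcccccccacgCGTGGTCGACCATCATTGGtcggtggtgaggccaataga
SDF2L1 (ERSE-II on the opposite strand, chr22:21642094-21642144, plus strand, 188 bases before): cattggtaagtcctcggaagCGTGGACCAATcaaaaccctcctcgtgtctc
HYOU1 (UPR element, chr11:119057366-119057413, minus strand, 188 bases before, sharing bases with an ERSE-II): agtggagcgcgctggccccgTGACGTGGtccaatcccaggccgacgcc
SSR3 (UPR element on the opposite strand, chr3:156554139-156554186, minus strand, 41 bases before): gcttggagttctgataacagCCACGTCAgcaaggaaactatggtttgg

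Among the genes tested, levels in shControl cells per kilobase of the principal GENCODE transcript spanned from 57.8 ± 1.63 (SD, n = 3) normalized counts per kilobase for ERN1 to 22553 ± 1821 for P4HB, the beta subunit of prolyl hydroxylase and a protein disulfide isomerase. P4HB was followed by the calcium-binding lectin CALR (19159 ± 1240), the chaperone HSP90B1 (17417 ± 1773), the translocon-associated SSR2 (15146 ± 1365) and the membrane-bound lectin CANX (14494 ± 1377). The libraries of P4HB lay above those of CALR, and from CALR down to CANX the ranges of neighbours overlapped. The chaperone HSPA5 (BiP) came sixth at 11592 ± 1175. The sensors sat at the other end, with ATF6 at 429 ± 30.5 and EIF2AK3 at 249 ± 28.9, whereas XBP1 reached 2936 ± 341. The level of DNAJC10 (195 ± 23.5) is set by a principal transcript of 20129 bases. Exons of SYVN1 and DNAJB11 share 8.39% and 7.87% of their bases with another gene on the same strand, so their counts are uncertain. PDIA6 (25.2% of exon bases), PDIA3 (18.9%), DNAJB11 (15.3%) and EIF2AK3 (15.1%) have the largest overlaps with genes on the opposite strand among the genes tested. Whether the counting used strand is not given in the sources used here. DERL3 had 1 count in shControl 1A and 0 in the other 5 libraries, where a count of 0 allows up to 3 counts, and DNAJB9, a co-chaperone of HSPA5, was measured at 421, 389 and 317 normalized counts in shControl and 323, 297 and 333 in shDYRK1A, below the filter on low counts. The remaining 34 genes were tested.

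**Figure D1:**
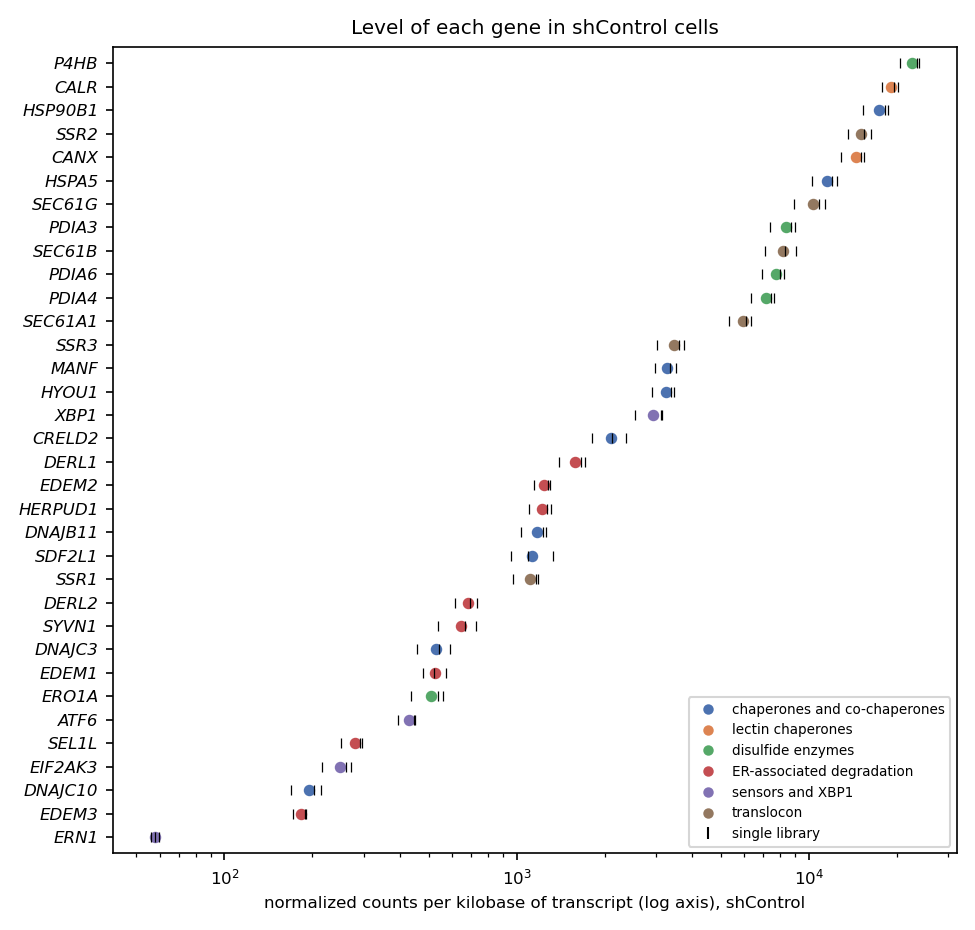
Level of the 34 tested genes in shControl cells, in spike-in normalized counts per kilobase of the principal transcript on a log axis; dots are means of 3 libraries coloured by role and ticks are single libraries. P4HB (22553) is at the top and the sensor gene ERN1 (57.8) at the bottom.

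The values were read on a pair of scales that answer different questions. The spike-in scale refers each gene to the fly RNA and thus to a fixed number of cells put in. The human-gene scale (TMM factors over the human genes) refers it to the other human genes. On the spike-in scale the median log2FC was -0.40 over all 9697 genes tested and -0.40 over the 34 genes, and on the human-gene scale it was 0.00 and 0.01. The members went both ways about that median, from -0.73 to 0.81 on the human-gene scale. In these bulk libraries fewer human cells per fly cell and less RNA per cell cannot be told apart.

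On the spike-in scale, 33 of the 34 genes had a negative log2FC. A total of 26 were lower in shDYRK1A at an adjusted p below 0.05 (edgeR's quasi-likelihood test, Benjamini-Hochberg over all genes), which is 76.5% of them beside 63.4% of all genes tested, and 28 (82.4%) had no overlap between groups with shDYRK1A lower, beside 63.6% of all genes. Of the genes that passed by adjusted p, 11 no longer did without shControl 1A, 10 without shControl 1B, 10 without shDYRK1A 1C and 5 without shDYRK1A 1B, whereas without shControl 1C 5 further genes passed as lower (HSPA5, CRELD2, EDEM3, DERL1 and ATF6) and without shDYRK1A 1A 2 (EDEM3 and ATF6). At an adjusted p below 0.05 and a log2FC below -0.7, 7 of the 34 genes (20.6%) were called lower, beside 14.3% of all genes: the co-chaperones DNAJC3 and DNAJC10, the chaperone-like factor MANF, CANX, XBP1, and the translocon-associated SSR1 and SSR3. Without shControl 1A 3 genes were called lower and without shDYRK1A 1B 4. The count called higher at log2FC above 0.7 was 0 (0.278% of all genes) with edgeR, 0 with DESeq2, and 0 at an unadjusted p below 0.05 of that size; EDEM2 was the 1 gene higher at an adjusted p below 0.05 alone, where 1.08% of all genes were, and the 1 gene whose groups did not overlap with shDYRK1A higher (1.59% of all genes).

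On the human-gene scale, 11 of the 34 genes were lower (32.4%) and 6 were higher (17.6%) at an adjusted p below 0.05, beside 28.6% and 27.3% of all genes. In CPM, counts scaled to the same human total in each library, 12 genes had no overlap between groups with shDYRK1A lower (29.3% of all genes) and 10 with shDYRK1A higher (33.5%). Past a log2FC of 0.7 in size, SSR3 was the 1 gene called lower (1.93% of all genes) and EDEM2 the 1 gene called higher (1.25%). Together the 36 genes took 1.03, 1.01 and 1.03% of human counts in shControl, and 0.998, 1.01 and 0.994% in shDYRK1A. The shDYRK1A libraries were all below the shControl libraries, by 0.0247 percentage points on average. The roles did not move together. The share was lower for the lectin chaperones (-0.0218 points), the translocon (-0.0150) and the sensors with XBP1 (-0.0026). It was higher for the chaperones and co-chaperones (0.0030), the disulfide enzymes (0.0062) and the degradation genes (0.0054). The groups overlapped for the chaperones and co-chaperones and for the disulfide enzymes, and not for the other roles. Single genes weighed heavily. EDEM2 rose from a mean of 52.8 to 93.8 CPM, most of the rise of the degradation genes. XBP1 fell from 120 to 85.6 CPM, more than the sensors and XBP1 did together. The lectin chaperone CANX by itself went from a mean of 1362 CPM in shControl to 1121 in shDYRK1A. That is nearly the size of the fall of all 36 genes together.

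**Figure D2:**
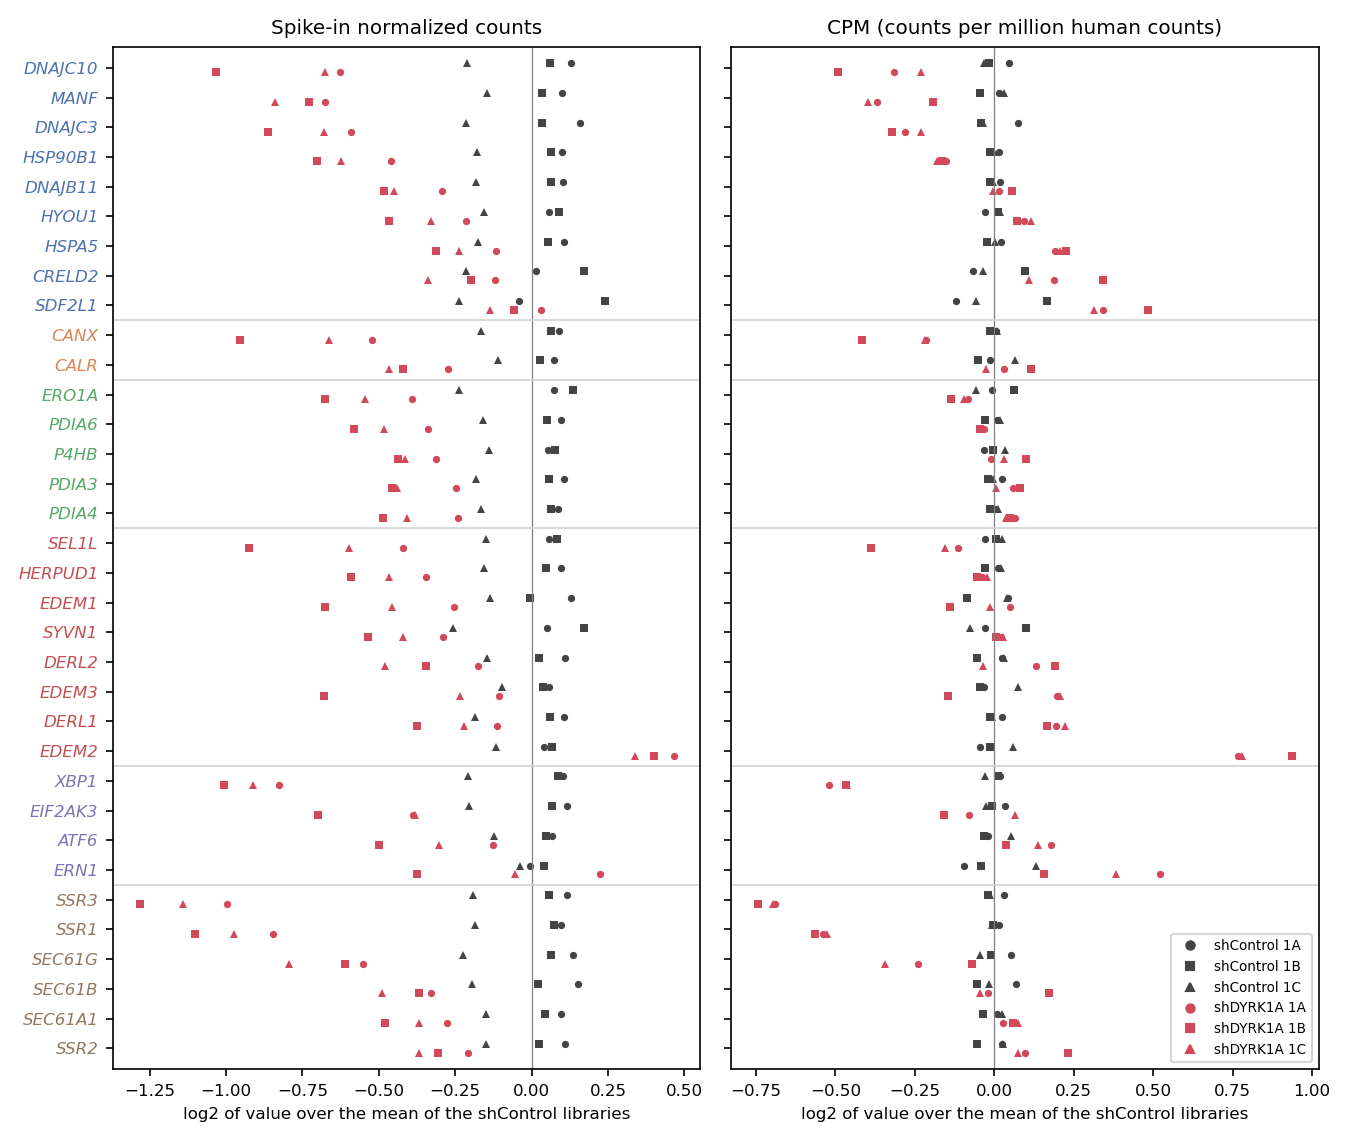
Each tested gene in each library, as log2 of its value over the mean of the 3 shControl libraries, for spike-in normalized counts (left) and CPM (right); rows are grouped by role. On the left nearly all shDYRK1A points (red) lie below the shControl points (grey), EDEM2 being the gene above them; on the right SSR3, SSR1 and XBP1 keep to the left and EDEM2 lies far to the right.

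Among the chaperones, the Hsp70 chaperone HSPA5, which also holds the sensors inactive, and its Hsp90 partner HSP90B1 (GRP94) are the textbook readouts of the response and are given here for that role, after their values were seen. HSPA5 had 48771, 47036 and 40096 normalized counts in shControl, and 41779, 36472.5 and 38413 in shDYRK1A. The groups overlapped, since shControl 1C was below shDYRK1A 1A, and the log2FC was -0.22 ± 0.13 (adjusted p = 0.111 by edgeR), or -0.30 (adjusted p = 0.00395) without shControl 1C; on the human-gene scale HSPA5 was higher, at 0.19 ± 0.04 (adjusted p = 0.00403). HSP90B1 had 53352, 51997.5 and 43979 normalized counts in shControl and 36219.5, 30576 and 32289 in shDYRK1A. Its groups did not overlap, and it was lower on both scales, with a log2FC of -0.59 ± 0.13 (adjusted p = 1.99e-05 by edgeR) and -0.19 ± 0.04 (adjusted p = 0.00312).

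DNAJC10, an ER co-chaperone that reduces disulfide bonds, was the lowest of the chaperone group on the spike-in scale. It had 4296, 4089.7 and 3392 normalized counts in shControl, and 2545, 1918 and 2455 in shDYRK1A. Every shDYRK1A library was below every shControl library, shDYRK1A 1B the lowest, and the log2FC was -0.77 ± 0.14 (adjusted p = 6.51e-07 by edgeR). MANF, a secreted ER stress factor, had 4055, 3872 and 3423 normalized counts in shControl and 2369.6, 2281 and 2113 in shDYRK1A, with no overlap and a log2FC of -0.75 ± 0.14 (adjusted p = 1.36e-06 by edgeR). DNAJC3, which binds unfolded chains with HSPA5, had 3302, 3029.8 and 2551 in shControl and 1966, 1627 and 1851 in shDYRK1A, with no overlap and a log2FC of -0.71 ± 0.14 (adjusted p = 6.43e-06 by edgeR). These 3 genes were also lower on the human-gene scale, at -0.36 ± 0.06, -0.34 ± 0.06 and -0.30 ± 0.05. The calls past -0.7 rest on single libraries: DNAJC10 moved to between -0.65 and -0.86 when 1 library was left out, losing the call without shControl 1A or shDYRK1A 1B, DNAJC3 to between -0.62 and -0.80, losing it without 1A or 1B of shControl or 1B of shDYRK1A, and MANF to between -0.69 and -0.81, losing it without shControl 1A.

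At the other end of the chaperone group stood SDF2L1, a partner of the DNAJB11 co-chaperone, with 947, 1149.5 and 826 normalized counts in shControl and 995, 936 and 887 in shDYRK1A. All shDYRK1A values lay inside the shControl range, and the log2FC was -0.05 ± 0.15 (adjusted p = 0.768 by edgeR), while on the human-gene scale SDF2L1 was higher, at 0.36 ± 0.08 (adjusted p = 0.00366). CRELD2, an ER protein with disulfide isomerase activity, had a log2FC of -0.22 ± 0.14 and, on the human-gene scale, 0.19 ± 0.07 (adjusted p = 0.0372), which did not pass without shControl 1A (0.16), shControl 1C (0.18) or shDYRK1A 1B (0.11), nor with edgeR's filterByExpr (adjusted p = 0.0635) or no filter beyond 1 count (adjusted p = 0.0544). DNAJB11 and HYOU1, a large Hsp70 relative that exchanges nucleotide on HSPA5, were lower on the spike-in scale (-0.41 ± 0.14 and -0.33 ± 0.13) and had 0.00 ± 0.05 and 0.07 ± 0.04 on the human-gene scale, neither past the threshold. Genes with an ERSE or ERSE-II thus stood at both ends: XBP1 and CANX among the lowest and SDF2L1 among the highest. The 10 genes with either element had a median log2FC of -0.02 on the human-gene scale, and the 22 tested genes with a matched promoter and neither element had 0.00.

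The lectin chaperones CANX and CALR bind the same monoglucosylated glycans, CANX in the membrane and CALR in the lumen. CANX had 65678, 64555 and 55005 normalized counts in shControl, and 43033.5, 31856 and 38991 in shDYRK1A. The groups were far apart, with shDYRK1A 1B the lowest, and the log2FC was -0.70 ± 0.13 (adjusted p = 3.5e-07 by edgeR); when 1A or 1B of shControl or 1B of shDYRK1A was left out it lost the call, at -0.59 to -0.80 over the 6 fits. Its human-gene value was -0.30 ± 0.05 (adjusted p = 0.000408). CALR had 38372, 37184 and 33823 in shControl and 30169, 27255 and 26383 in shDYRK1A, without overlap, a log2FC of -0.38 ± 0.13 (adjusted p = 0.00581 by edgeR) and 0.02 ± 0.06 on the human-gene scale (adjusted p = 0.778).

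The enzymes of disulfide formation were the most even role. On the spike-in scale all 5 were lower, by -0.53 ± 0.14 for ERO1A, -0.46 ± 0.13 for PDIA6, -0.39 ± 0.13 for P4HB, -0.38 ± 0.13 for PDIA3 and -0.37 ± 0.13 for PDIA4. ERO1A, the oxidase that recharges the isomerases, had 2843, 2971 and 2293 normalized counts in shControl and 2059, 1689.9 and 1853 in shDYRK1A. PDIA4, an isomerase with several thioredoxin domains, had 22002, 21628 and 18468.5 in shControl and 17515, 14768 and 15611 in shDYRK1A. Neither gene's groups overlapped. On the human-gene scale the 5 genes ranged from -0.13 ± 0.05 for ERO1A (adjusted p = 0.0469 by edgeR, which passed without shDYRK1A 1B but in none of the other 5 fits with 1 library left out, at -0.10 to -0.15) to 0.03 ± 0.04 for PDIA4, and the other 4 did not pass.

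Among the tested members of ER-associated degradation, EDEM2 was the exception in direction on the spike-in scale. EDEM2 starts the trimming of mannose from glycans that marks a misfolded protein for disposal. It had 2458, 2503 and 2203 normalized counts in shControl, and 3296, 3155 and 3018 in shDYRK1A. All shDYRK1A libraries were above all shControl libraries, and the log2FC was 0.40 ± 0.14 (adjusted p = 0.00923 by edgeR). In CPM it rose from 51.1, 52.3 and 54.9 to 89.9, 101 and 90.6, a log2FC on the human-gene scale of 0.81 ± 0.06 (adjusted p = 1.36e-06 by edgeR), the 77th highest of the 9697 genes. Leaving out any 1 library left it at 0.74 to 0.85. Its relatives EDEM1 and EDEM3 had -0.05 ± 0.06 and 0.07 ± 0.08 on the human-gene scale, neither past the threshold (EDEM3 passed without shDYRK1A 1B, at 0.17), and -0.45 ± 0.14 (adjusted p = 0.00347) and -0.32 ± 0.15 (adjusted p = 0.0547) on the spike-in scale.

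SEL1L, the scaffold of the SYVN1 (HRD1) ubiquitin ligase, was the lowest of the degradation genes, with 2299.65, 2343 and 1994 normalized counts in shControl and 1652, 1166 and 1460.4 in shDYRK1A. Its groups did not overlap, with shDYRK1A 1B the lowest, and the log2FC was -0.63 ± 0.15 (adjusted p = 6.96e-05 by edgeR) and -0.24 ± 0.06 on the human-gene scale (adjusted p = 0.00662). The ligase SYVN1 itself, whose exons overlap another gene, had -0.41 ± 0.15 and 0.00 ± 0.06. DERL1, a channel-like membrane protein of retrotranslocation, had -0.23 ± 0.14 (adjusted p = 0.12) and was higher on the human-gene scale, at 0.17 ± 0.04 (adjusted p = 0.00327 by edgeR), while its relative DERL2 had -0.33 ± 0.14 (adjusted p = 0.0342, and 0.07 with no filter beyond 1 count) and 0.08 ± 0.07 (adjusted p = 0.345). HERPUD1, an early target of the response, had -0.46 ± 0.14 (adjusted p = 0.00252) and -0.06 ± 0.04 (adjusted p = 0.255).

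**Figure D3:**
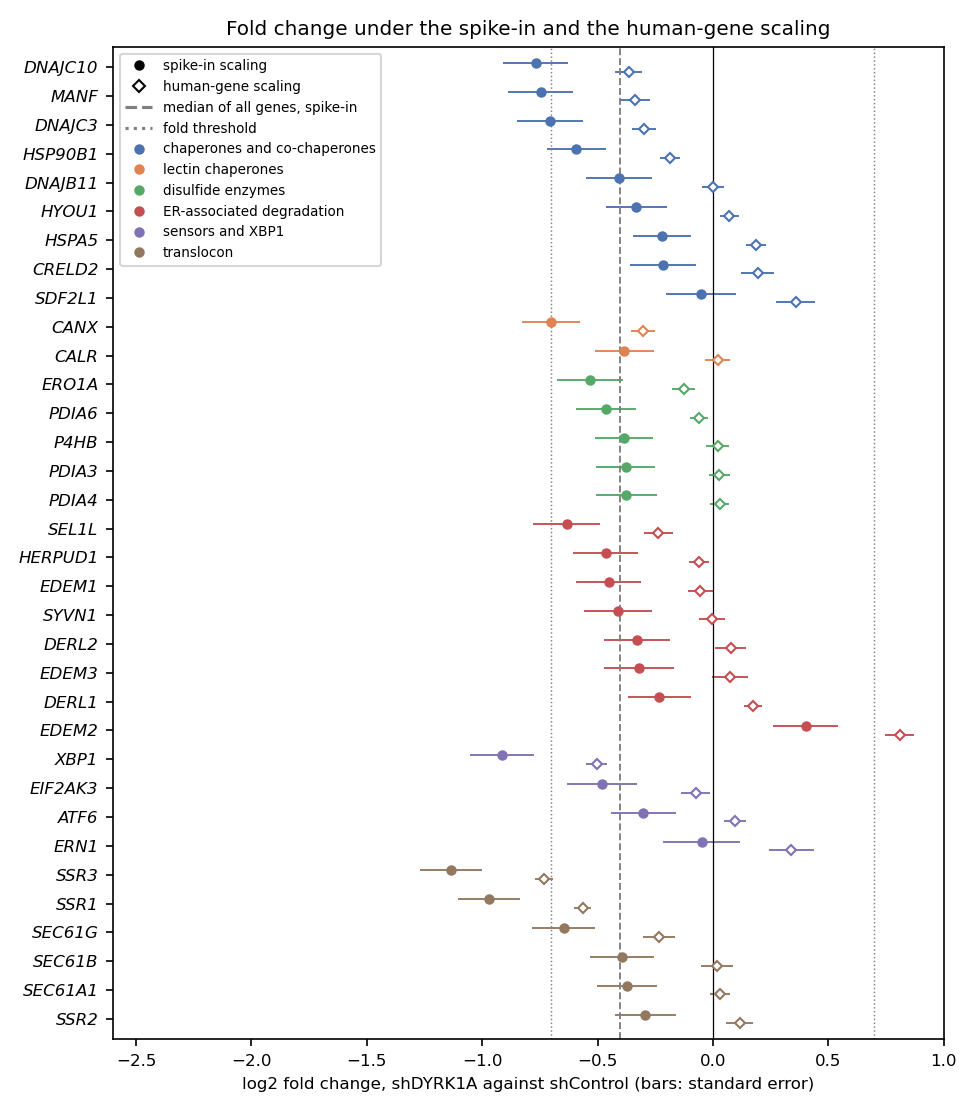
log2FC of shDYRK1A against shControl with its standard error for the 34 tested genes, on the spike-in scale (filled) and on the human-gene scale (open); the dashed line is the median of all genes on the spike-in scale (-0.40) and dotted lines mark 0.7. EDEM2 is on the positive side on both scales and SSR3, SSR1 and XBP1 are the lowest on both, whereas HSPA5, SDF2L1, CRELD2, DERL1 and ERN1 are negative on the spike-in scale and positive on the human-gene scale.

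Of the sensors and XBP1, the transcription factor moved most. XBP1 had 5829, 5764 and 4704.5 normalized counts in shControl, and 3061, 2706 and 2888 in shDYRK1A. The groups were well apart, and the log2FC was -0.91 ± 0.14 (adjusted p = 1.41e-09 by edgeR), with 6 of 6 fits with 1 library left out keeping the call (-0.86 to -1.01). Its human-gene value was -0.50 ± 0.04 (adjusted p = 3.89e-06), the 482nd lowest of the 9697 genes. ERN1, whose product splices the XBP1 message, had 454, 469 and 443 normalized counts in shControl and 531, 351 and 438 in shDYRK1A. These groups overlapped, with shDYRK1A libraries both above and below the shControl range, and the log2FC was -0.05 ± 0.17 (adjusted p = 0.8 by edgeR). ERN1 was higher on the human-gene scale, at 0.34 ± 0.10 (adjusted p = 0.0103), and 0.29 without shControl 1A, where it did not pass (adjusted p = 0.0548). EIF2AK3 had -0.48 ± 0.15 (adjusted p = 0.00411) and -0.08 ± 0.06 (adjusted p = 0.333), and ATF6 had -0.30 ± 0.14 (adjusted p = 0.0507) and 0.10 ± 0.05 (adjusted p = 0.102, and 0.12 with adjusted p = 0.0188 without shDYRK1A 1B).

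The translocon held the lowest genes of all. SSR1 and SSR3 encode the alpha and gamma subunits of the translocon-associated protein (TRAP) complex, which sits beside the Sec61 channel and helps some chains to enter, and SSR2 encodes its beta subunit. SSR3 had 13937, 13393 and 11275 normalized counts in shControl, and 6446, 5289 and 5835 in shDYRK1A. SSR1 had 11456, 11255 and 9413 in shControl and 5959.6, 4988 and 5455 in shDYRK1A. In both genes the groups were separated by a wide gap. The log2FC was -1.14 ± 0.13 for SSR3 (adjusted p = 2.99e-15 by edgeR) and -0.97 ± 0.13 for SSR1 (adjusted p = 2.73e-11), and on the human-gene scale -0.73 ± 0.04 (adjusted p = 1.08e-07) and -0.56 ± 0.04 (adjusted p = 4.97e-07), the 158th and 366th lowest of the 9697 genes. Both kept their spike-in calls in 6 of 6 fits with 1 library left out.

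SSR2 lay nearer to the median of all genes. It had 18253.5, 17204 and 15252 normalized counts in shControl and 14620.5, 13675 and 13093 in shDYRK1A, lower without overlap but by a log2FC of -0.29 ± 0.13 (adjusted p = 0.0403 by edgeR, and 0.0885 with no filter beyond 1 count), and 0.12 ± 0.06 on the human-gene scale (adjusted p = 0.104). SSR4, which encodes the delta subunit and was no member, had -0.11 (adjusted p = 0.472) and was higher on the human-gene scale at 0.30 ± 0.07 (adjusted p = 0.0022). Within the Sec61 channel, the small gamma subunit SEC61G was lower on both scales (-0.65 ± 0.14, adjusted p = 1.24e-05, and -0.23 ± 0.07, adjusted p = 0.0133, the latter not past the threshold without shControl 1A or shDYRK1A 1A, at -0.21 in each). The pore-forming SEC61A1 and the beta subunit SEC61B had -0.37 ± 0.13 and -0.39 ± 0.14 on the spike-in scale and 0.03 ± 0.04 and 0.02 ± 0.07 on the human-gene scale, the latter not past the threshold.

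Ratios of raw counts between related genes of the same library need no scaling between libraries. The pairs were chosen after the values were seen and are given as a description, with no test. The log2 ratio of SSR3 to SSR2 was -0.39, -0.36 and -0.44 in shControl, and -1.18, -1.37 and -1.17 in shDYRK1A. SSR1 to SSR2 was -0.66 ± 0.04 (SD, n = 3) in shControl and -1.34 ± 0.10 in shDYRK1A, and SSR4 to SSR2 -1.02 ± 0.01 and -0.84 ± 0.04. All 3 TRAP ratios were separate between groups, SSR1 and SSR3 being lower and SSR4 higher against SSR2 in shDYRK1A. XBP1 to HSPA5 was -3.06 ± 0.03 and -3.75 ± 0.02, HSP90B1 to HSPA5 0.14 ± 0.01 and -0.24 ± 0.03, and EDEM2 to EDEM1 -0.43 ± 0.08 and 0.43 ± 0.19. HSP90B1 thus had more counts than HSPA5 in every shControl library and fewer in every shDYRK1A library. The ratio of CANX to CALR was 0.76 ± 0.05 and 0.43 ± 0.18, with shDYRK1A 1B the lowest at 0.23. SEC61A1 to SEC61B was 2.28 ± 0.05 and 2.30 ± 0.12, with overlapping groups.

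**Figure D4:**
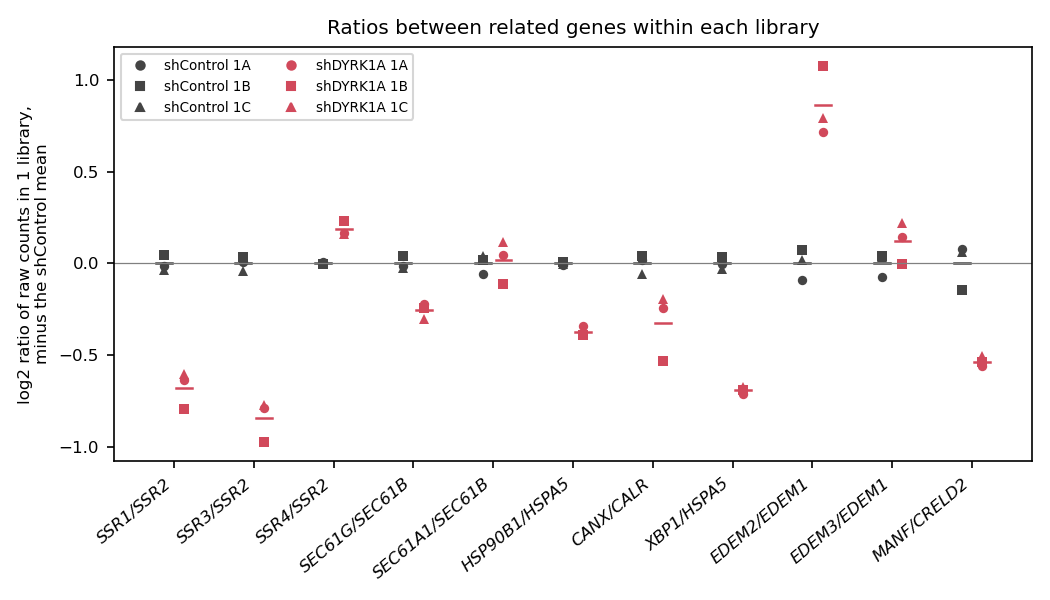
log2 ratio of the raw counts of related genes within each library, minus the mean of the 3 shControl libraries; short bars are group means and symbols are libraries. SSR1/SSR2, SSR3/SSR2 and XBP1/HSPA5 are far below 0 in the 3 shDYRK1A libraries and EDEM2/EDEM1 is far above, whereas SEC61A1/SEC61B and EDEM3/EDEM1 overlap with shControl.

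The other genes of the pathway were described from lists by count and median on the human-gene scale, where the median over all genes was 0.00 and the shares of genes passing were as given above. Of 31 tested genes of other ER folding factors, 10 were higher and 5 lower at an adjusted p below 0.05, with a median log2FC of 0.08. Their highest was SIL1, a nucleotide exchange factor of HSPA5, at 0.44 ± 0.06 (adjusted p = 0.000118 by edgeR; 0.03 on the spike-in scale), and their lowest LMAN1, a cargo lectin, at -0.38 ± 0.05. Of 27 genes of translocation and N-glycosylation, 8 were higher and 11 lower, with a median of -0.06. They spanned from SEC63, a partner of the Sec61 channel that recruits HSPA5, at -0.58 ± 0.04 to SRPRA, the receptor of the signal recognition particle, at 0.33 ± 0.04.

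Of 22 further degradation genes, 4 were higher and 3 lower, with a median of 0.02. OS9, a lectin that reads the mannose signal for the SYVN1 complex, was their highest at 0.57 ± 0.05, and FAF2 their lowest at -0.37 ± 0.05. TMEM129 followed OS9 at 0.55 ± 0.08. On the spike-in scale OS9 (0.17, adjusted p = 0.255 by edgeR) and TMEM129 (0.14, adjusted p = 0.392) were positive, and the other 20 genes were negative. Of 9 further regulators of the response, 3 were higher and 3 lower, with a median of -0.06, from the transcription factor CREB3L2 at -0.54 ± 0.04 to MBTPS1, the protease that first cuts ATF6, at 0.23 ± 0.04. The ATF4 branch downstream of PERK stood lowest, with 13 of 19 tested genes lower and 2 higher and a median of -0.38. Its lowest was CHAC1, a glutathione-degrading enzyme, at -1.42 ± 0.10 and its highest NUPR1 at 0.31 ± 0.06, whereas on the spike-in scale NUPR1 had -0.10 and the list's median was -0.79. ATF4 itself had -0.14 ± 0.05 on the human-gene scale, DDIT3 -0.38 ± 0.07, PPP1R15A 0.01 ± 0.05 and ATF3 0.22 ± 0.09. ATF3, 1 of the 2 counted as higher, passed narrowly (adjusted p = 0.0499 by edgeR). It had -0.17 on the spike-in scale (adjusted p = 0.352 by edgeR). Further down were PSAT1 at -1.22 ± 0.04 and XPOT at -1.14 ± 0.06. By immunoblot, the paper saw no change in phosphorylated eIF2α after DYRK1A silencing. It names this mark as a way for the unfolded protein response to inhibit translation. ATF4 also answers to amino acid supply and other signals. The part of PERK and of these signals in the list's values was not tested.

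**Figure D5:**
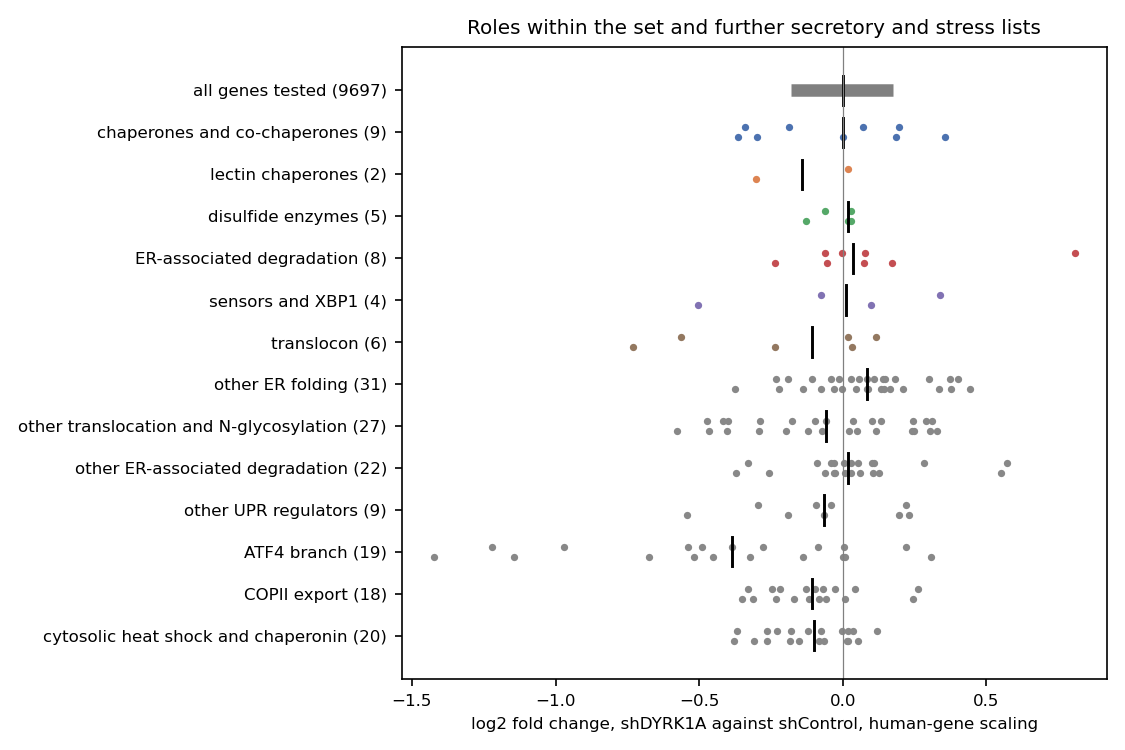
log2FC on the human-gene scale for the tested genes of each role (coloured) and of the further lists (grey dots), with the number tested in brackets; black bars are medians and the grey band is the interquartile range of all 9697 genes (-0.18 to 0.18). The ATF4 branch lies lowest, at a median of -0.38, and single genes such as EDEM2, SSR3, SSR1 and XBP1 lie far outside the band while the medians of the 6 roles range from -0.14 to 0.04; on the spike-in scale all medians are negative.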

How the data were processed

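RNA was read as stranded paired-end mRNA libraries. The authors deposited raw counts per gene and library, a table of normalized values (a signal: each library's counts divided by 1 size factor derived from the fly reads), and their own comparison with log2 fold changes, a Wald score and p-values, of which no value was used. STAR and DESeq2 are named in the submitters' notes, with builds hg38 and dm3. Fly counts were not analysed here: the size factors were those implied by the normalized table. Genes with a mean CPM above 10 were kept (9697). Group differences were tested with edgeR 4.0.16 (robust quasi-likelihood, R 4.3.3), with these factors or TMM factors, and Benjamini-Hochberg adjustment. Standard errors are the log2FC over the square root of F. The procedure was tested on simulated data. The number of per-sample columns matching no sample was 0. Positions of 35 genes equalled GENCODE 29 (GRCh38). Protein sequences were not analysed here. The genes, lists and rules were chosen with earlier results of these data known. Library values are given for genes called on either scale and for each role's extremes, with HSPA5 and HSP90B1 added, and for each further list its extremes were named.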

Additional observations from a re-analysis of the deposited data

How the results depend on the processing

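The number of ER genes called lower on the spike-in scale was 7, and also 7 with DESeq2, with edgeR's filterByExpr, with no filter beyond 1 count and with the replicate letter as a replicate block. It was 1 under TMM and 1 under median-of-ratios scaling, 26 by adjusted p alone, 1 past a log2FC of 1, and 3 to 9 when single libraries were left out (3 without shControl 1A, 4 without shDYRK1A 1B). The number called higher was 0, or 1 under either human-gene scaling or by adjusted p alone, and 0 in every fit with 1 library left out. The median log2FC turned from -0.40 to 0.0091 under TMM and 0.012 under median-of-ratios scaling, was -0.36 to -0.49 with single libraries left out, and -0.40 in the replicate block fit. On the human-gene scale the counts lower and higher were 11 and 6, then 9 to 11 and 4 to 7 over the alternatives, and 10 and 6 in the replicate block fit. Same-letter libraries had correlated deviations of 0.151, 0.0728 and 0.128, and libraries of different letters had -0.0143 to -0.0937. Each correlated best with its own letter, but not all exceeded 0.1, so the letters were not taken as pairs. That cut was a choice, and whether the letters mark pairs was not tested. The difference in the share of counts was -0.02 to -0.031 percentage points over the single-library omissions. It was -0.0284 without P4HB, which had the most counts summed over all libraries. The mean CPM of P4HB rose from 1296 to 1333, so leaving it out could only widen the difference. CANX had more counts than P4HB in each shControl library and fell from 1362 to 1121 CPM, nearly the size of the fall of the whole set. The share was not computed without CANX.

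Signs that turned from the spike-in scale were, under TMM and then median-of-ratios scaling, HSPA5 (0.19, 0.19), HYOU1 (0.071, 0.074), DNAJB11 (0.00032, 0.0034), SDF2L1 (0.36, 0.36), CRELD2 (0.19, 0.20), CALR (0.0202, 0.0232), PDIA3 (0.027, 0.0305), PDIA4 (0.0296, 0.033), P4HB (0.0200, 0.023), EDEM3 (0.074, 0.077), DERL1 (0.17, 0.18), DERL2 (0.076, 0.079), ERN1 (0.34, 0.34), ATF6 (0.097, 0.10), SEC61A1 (0.033, 0.036), SEC61B (0.018, 0.021) and SSR2 (0.12, 0.12), and SYVN1 under the latter (0.00022); these scalings set the median of all genes near 0 by construction. With single libraries left out SDF2L1 ranged from -0.16 to 0.084, positive without shControl 1B, and ERN1 from -0.20 to 0.0895, positive without shDYRK1A 1B. On the human-gene scale, values that never passed turned sign near 0: with filterByExpr DNAJB11 (-0.0303), CALR (-0.011), PDIA3 (-0.0034), PDIA4 (-0.0011), P4HB (-0.011) and SEC61B (-0.013), with no filter DNAJB11 (-0.046), CALR (-0.027), PDIA3 (-0.019), PDIA4 (-0.017), P4HB (-0.026), SEC61A1 (-0.014) and SEC61B (-0.029), in the replicate block fit DNAJB11 (-4.7e-06), and for SYVN1 0.00021 with DESeq2 and 0.00022 with median of ratios. With single libraries left out, DNAJB11 ranged from -0.0304 to 0.017, CALR from -0.032 to 0.055, PDIA3 from -0.0024 to 0.052, P4HB from -0.025 to 0.055, SEC61B from -0.067 to 0.061 and SYVN1 from -0.040 to 0.044. The cause was not tested. ERO1A lost its pass on the human-gene scale in the replicate block fit (adjusted p = 0.0515), under median-of-ratios scaling (0.0504) and by DESeq2 (adjusted p = 0.0641), CRELD2 with filterByExpr (0.0635) and with no filter beyond 1 count (0.0544), and DERL1 with no filter (0.0849). On the spike-in scale SSR2 (0.0885) and DERL2 (0.07) lost theirs with no filter, and EDEM3 (0.048) and ATF6 (0.0255) gained one with DESeq2. With 3 libraries a group, log2FC standard errors of 0.13 to 0.17 on the spike-in scale and 0.04 to 0.10 on the human-gene scale limit what could be told apart.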

Other observations

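Of 18 genes of COPII export and retrieval from the Golgi, 9 were lower and 2 higher at an adjusted p below 0.05 on the human-gene scale (edgeR), with a median log2FC of -0.11 (28.6% of all genes were lower and 27.3% higher, with a median of 0.00), and 16 were lower on the spike-in scale, with a median of -0.51 (63.4% of all genes, with a median of -0.40). The lowest was TFG, which organises ER exit sites, at -0.35 ± 0.04, and the highest SEC24C, a cargo-binding coat subunit, at 0.26 ± 0.04 (-0.14 on the spike-in scale). Of 20 cytosolic heat shock and chaperonin genes, 10 were lower and 1 higher on the human-gene scale, with a median of -0.10, beside the same 28.6% and 27.3% of all genes, and 20 were lower on the spike-in scale, with a median of -0.51, beside 63.4% of all genes with a median of -0.40. Among the chaperonin subunits, CCT8 was the lowest of the list at -0.38 ± 0.04 and CCT3 the highest at 0.12 ± 0.05 (adjusted p = 0.044, and -0.29 on the spike-in scale).

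Among the shDYRK1A libraries, 1B had the lowest CPM for 17 of the 34 ER genes (50%) and for 53.2% of all genes tested.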
